A study of Mus musculus with 4 samples.

Results

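The voltage-gated sodium and calcium channel genes of the heart were described by nucleus class in Pkp2 cKO and control mice. They were taken by symbol from the gene list of the files: Scn, a number and a or b, for the subunits of sodium channels, and Cacna, Cacnb or Cacng for those of calcium channels. The rule gave 40 of 44628 genes. By name, 10 encode the pore-forming subunit of a sodium channel and 4 a sodium channel beta subunit. Another 10 encode the pore-forming subunit of a calcium channel, 4 an alpha2delta subunit, 4 an intracellular beta subunit and 8 a gamma subunit.

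Nuclei of hearts (taken entire by the series text, as frozen punches by the protocol) were sorted with an antibody against a nucleoporin and read with BD Rhapsody, a microwell method in which each RNA molecule receives a cell label and a unique molecular identifier (UMI). The 2 Pkp2 cKO libraries came from mice titled PKP2fl/fl with MCM cre/+, and the 2 control libraries from mice titled MCM cre/+ alone, whose genotype label reads wt. All mice were 8 weeks old and had received tamoxifen, with hearts taken 2 weeks later, and each library pooled 2 mice. The labels do not name the promoter of the Cre allele. A library is the replicate (n = 2 per group), so p-values measure the spread between pools.

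A voltage-gated channel opens when the membrane is depolarised. In heart muscle, sodium entry drives the upstroke of the action potential, and calcium entry through the L-type channel of Cacna1c (Cav1.2) triggers release of stored calcium and contraction. Beta and alpha2delta subunits carry the pore to the surface and tune its gating. Cacna1d (Cav1.3) is an L-type and Cacna1g (Cav3.1) and Cacna1h (Cav3.2) are T-type pores known from pacemaker tissue, and Cacna1a (Cav2.1) is the P/Q-type pore known from nerve terminals.

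Filtering left 3642 and 6268 nuclei in the Pkp2 cKO libraries, with 9687563 and 18433103 UMIs, and 2805 and 6024 nuclei in the control libraries, with 6883388 and 17247210 UMIs. Median UMIs per nucleus were 1856 to 2117, and libraries shared 0 cell labels. The limit of 5% mitochondrial UMIs was exceeded by 48.8% to 53.8% of barcodes. Clusters were named cardiomyocyte-like, fibroblast-like and so on from marker lists, and the ending is dropped from here on: cardiomyocyte, fibroblast, endothelial, mural (pericyte and smooth muscle) and macrophage nuclei are like those types by their markers, although the cell type label of every sample reads cardiomyocyte. Levels are given as CPM (UMIs of the gene per 1000000 UMIs of the class). Pkp2, which encodes the desmosomal protein plakophilin 2, had 617 and 591.5 CPM in cKO cardiomyocyte nuclei, against 569 and 556 in control ones. The counts are totals per gene. Neither the part of a transcript that was read nor the place of the loxP sites is stated. The counts therefore do not check the deletion. Esr1, whose hormone-binding domain is part of tamoxifen-inducible Cre proteins, had 3589 and 3327 CPM in cKO cardiomyocyte nuclei, against 75.4 and 63.4 in control ones, while the titles put the MCM cre allele in both groups. The groups are named by their labels, and a difference in that transgene and the Pkp2 genotype cannot be told apart. Xist, transcribed in female cells, gave 13 and 28 UMIs over all barcodes of the cKO libraries and 7 and 22 in the control libraries, although the labels put a female mouse in every pool.

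Of the 40 genes, 31 reached at least 10 UMIs over the 4 libraries in at least 1 of the 5 classes, the minimum used here for detection. The other 9 did not: the sodium pore gene Scn11a, the sodium beta gene Scn2b, the calcium pore genes Cacna1f and Cacna1i, and the gamma genes Cacng1, Cacng2, Cacng4, Cacng5 and Cacng8. Cardiomyocyte nuclei held 30 detected genes, fibroblast nuclei 20, endothelial nuclei 23, mural nuclei 17 and macrophage nuclei 18. After the expression filter of the test, 23 genes could be tested in at least 1 class. Levels are CPM of the class, scaled between libraries with TMM factors. A level summed over a class does not tell fewer nuclei with the gene from less of its RNA per nucleus.

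**Figure D1:**
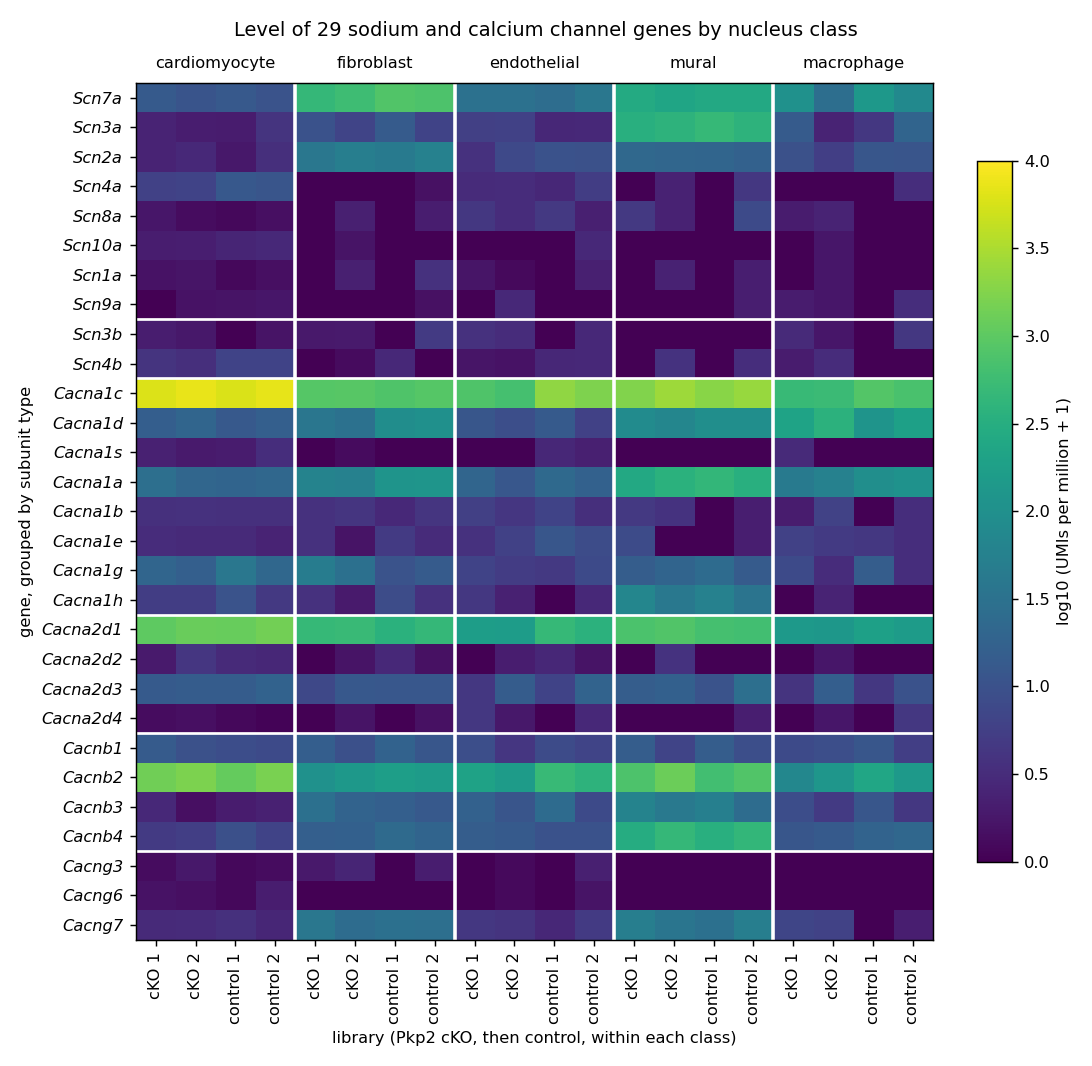
Level of 29 detected channel genes (rows, grouped by subunit type) in each library of the 5 nucleus classes (columns, Pkp2 cKO left of control), as log10 (CPM + 1). Cacna1c, Cacnb2 and Cacna2d1 are brightest in cardiomyocyte nuclei, Scn7a in fibroblast nuclei, and Scn3a and Cacnb4 in mural nuclei.

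Each gene was ranked by its mean over the 4 libraries, among the classes in which it was detected: 13 of the 31 were highest in cardiomyocyte nuclei, 8 in mural, 5 in endothelial, 4 in fibroblast and 1 in macrophage nuclei. Of the 13, 8 were detected in cardiomyocyte nuclei alone, the class with the most UMIs in every library. Ranked over all 5 classes, values under the detection minimum included, 10 were highest in cardiomyocyte nuclei, 9 in mural, 4 in endothelial, 6 in fibroblast and 2 in macrophage nuclei, and the 4 that moved were Scn1a, Scn8a, Scn9a and Cacng3, all of low level. The 5 genes ranked highest in endothelial nuclei by detection averaged 1.53 to 6.51 CPM there, also a low level. Some ranks were close or differed between libraries. Cacna1g averaged 24.7 in fibroblast and 23.0 in cardiomyocyte nuclei, and was highest in fibroblast nuclei in 2 libraries. These ranks are a description, since the nuclei were clustered on the same counts. Scn3a (Nav1.3), a pore known from developing neurons, averaged 394 CPM in mural nuclei. That was 43.5 times its level in macrophage nuclei, the next of the 5 classes. Scn7a (Nax), a sodium-sensing relative of the pores, averaged 651 in fibroblast nuclei and 252 in mural nuclei. The ranks leave out the smaller classes described below. There, pooled over libraries, Scn3a stood at 213 CPM in lymphatic nuclei, and Scn7a at 2827 in 17 Schwann-like or neuron-like nuclei.

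Of the calcium channel subunits, Cacna1c averaged 6644 CPM in cardiomyocyte nuclei and 2180 in mural nuclei. Cacnb4, an intracellular beta subunit, averaged 386 in mural nuclei, 21.2 times the level in fibroblast nuclei, the next class. Cacna1a and Cacna1h were also highest in mural nuclei in every library, at 346 and 49.4 CPM. Cacna1d averaged 219 in macrophage nuclei and 84.9 in mural nuclei, and every macrophage library stood above its mural counterpart. Cacnb2 averaged 1422 in cardiomyocyte nuclei and 862 in mural nuclei, and was higher in the cardiomyocyte nuclei of every library. This holds for the mural class as a whole, but not for its smooth muscle cluster, described below.

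In heart muscle nuclei, Cacna1c had 6257 and 7247 CPM in cKO cardiomyocyte nuclei, against 5963 and 7110 in control ones. Cacnb2, the main cardiac beta subunit gene, had 1351 and 1652 in cKO nuclei, against 1136 and 1547 in control nuclei. Cacna2d1, the alpha2delta subunit of the cardiac L-type channel, had 1031 and 1220 in cKO nuclei, against 1184 and 1387 in control nuclei. In all 3 the groups overlapped. Per kilobase of gene span, introns included, the mean levels were 10.9 CPM for Cacna1c, 3.7 for Cacnb2 and 2.74 for Cacna2d1. Such values, here and below, depend on whether intron reads were counted, which is not stated.

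No channel gene passed the test in cardiomyocyte nuclei. With edgeR's quasi-likelihood test and Benjamini-Hochberg adjustment over all genes, 0 of 22 tested channel genes were called at an adjusted p under 0.05, while 2.86% of all 15369 tested genes were. DESeq2 also called 0, against 3.96% of all genes it tested, and 4 channel genes had an unadjusted p under 0.05 in edgeR, against 14.3% of all genes. The log2 fold change was 0.05 for Cacna1c (SE 0.18, adjusted p = 0.954), 0.16 for Cacnb2 (SE 0.19, adjusted p = 0.799) and -0.19 for Cacna2d1 (SE 0.16, adjusted p = 0.691). The median over the 22 genes was 0.02, and 0.00 over all genes tested. The groups did not overlap for 8 of the 22, and for 43.1% of all genes.

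Genes with an unadjusted p under 0.05 were of low level. Scn4a (Nav1.4), the skeletal muscle sodium pore, had 4.97 and 5.45 CPM in cKO nuclei, against 11.6 and 10.52 in control nuclei (log2 fold change -1.07, SE 0.27, adjusted p = 0.0866). Scn4b, the sodium beta subunit gene linked to late sodium current, had 2.95 and 2.49 in cKO nuclei, against 5.28 and 5.4 in control nuclei (log2 fold change -0.99, SE 0.34, adjusted p = 0.22). For both genes the cKO and control libraries stood apart. Cacna1g had 19.3 and 15.3 in cKO nuclei, against 37 and 20.5 in control nuclei (log2 fold change -0.71, SE 0.29, adjusted p = 0.31), with no overlap and with control 1 highest. Without control 2, Cacna1g passed the test at -1.11, and without control 1 it was at -0.25 (adjusted p = 0.843). Scn10a (Nav1.8), a sodium pore of sensory neurons discussed for the cardiac conduction system, had an unadjusted p above 0.05 in edgeR. Its levels were 1.11 and 1.19 in cKO nuclei, against 1.63 and 1.86 in control nuclei (log2 fold change -0.61, SE 0.48, adjusted p = 0.656 by edgeR). Scn3b was detected but too low to test.

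**Figure D2:**
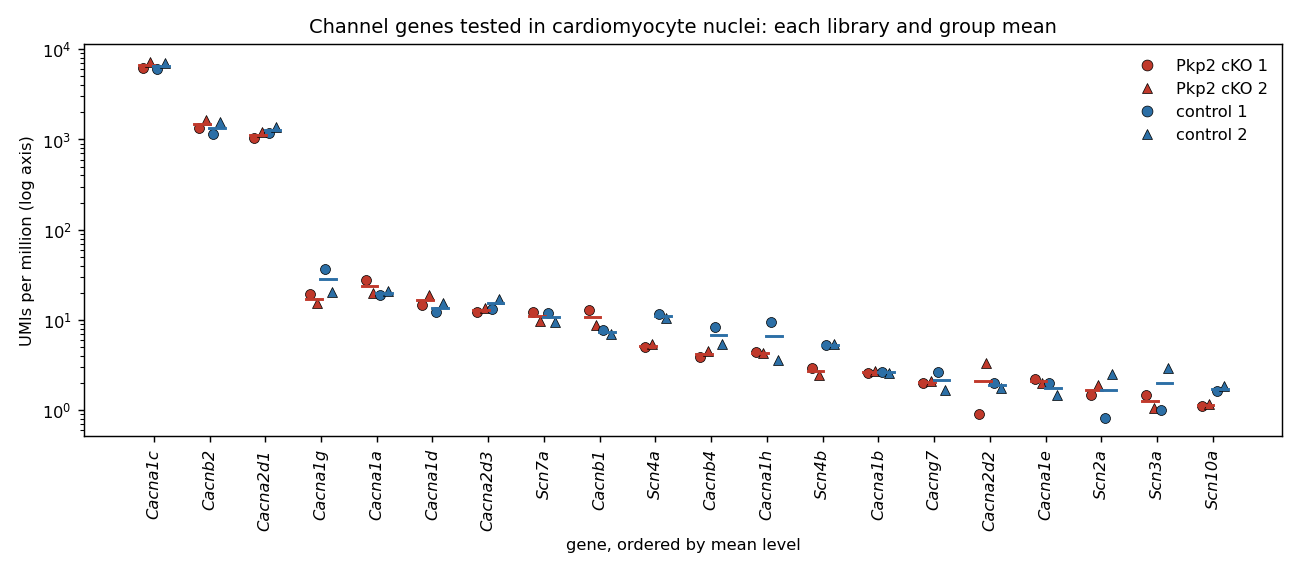
CPM (log axis) of 20 channel genes tested in cardiomyocyte nuclei, in order of mean level, with each library as a point (Pkp2 cKO in red, control in blue) and bars at group means of 2 libraries. The 3 highest genes lie at 1031 or more in every library. Genes whose groups stand apart include Scn4a, Scn4b and Cacna1g, lower in cKO, and Cacnb1, higher in cKO, each at 37 or less.

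Different clusters held most of the cardiomyocyte class in the 2 groups. The cluster led by Esr1 and Myh7 held 63.1% and 62.3% of cardiomyocyte nuclei in the cKO libraries, against 15.7% and 15.3% in the control libraries. The cluster led by Nppb and Gdf15, genes of cardiac stretch and stress, held 22.2% and 24.6% in cKO and 4.31% and 2.45% in control libraries. Of the clusters in which Mylk4 was a leading gene, one held 10.4% and 7.06% in cKO libraries, against 47.9% and 36.8% in control libraries, and the other held 4.04% and 5.71% in cKO libraries, against 31.9% and 44.9% in control libraries. Without the Nppb cluster, an alternative chosen after seeing the data, 0 channel genes were called too. Within the Esr1 cluster alone, Cacna1c had 6550 and 7335 CPM in cKO nuclei, against 5936 and 6705 in control nuclei, where the groups overlapped.

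The proteins that hold or regulate these channels were read from a list of 37 partner genes, of which 29 could be tested in cardiomyocyte nuclei. At an unadjusted p under 0.05 in edgeR, 3 partner genes were higher and 2 lower, beside 14.3% of all genes. At an adjusted p under 0.05, 1 rose, where 1.3% of all genes did, and 0 fell, where 1.56% did. The one that rose was Rrad, whose GTPase Rad restrains L-type channels through the beta subunit, with 98.7 and 99.8 CPM in cKO nuclei, against 42.7 and 28.4 in control nuclei (log2 fold change 1.503, SE 0.20, adjusted p = 0.00722). Both cKO libraries lay above both control libraries. Fgf14, one of the intracellular FGF proteins that bind sodium channel pores, had 238 and 283 in cKO nuclei, against 429 and 407 in control nuclei (log2 fold change -0.68, SE 0.15, adjusted p = 0.0504). DESeq2 called 2 partner genes, Rrad and Fgf14, the second at an adjusted p of 0.00768, beside 3.96% of all genes it tested. Of the related genes, Fgf12 was of low level, with 6.81 and 20 in cKO nuclei, against 4.27 and 5.03 in control nuclei (log2 fold change 1.54, SE 0.46, adjusted p = 0.149). Fgf13 was far higher, with 2309 and 3155 in cKO nuclei, against 3147 and 4122 in control nuclei (log2 fold change -0.41, SE 0.21, adjusted p = 0.429). For Fgf13 the groups overlapped. By list, 1 of 15 tested calcium channel partners, 0 of 13 sodium channel partners and 0 of 2 genes of the sodium leak channel passed in edgeR.

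Fibroblast nuclei changed in 3 pore genes of calcium channels. Cacna1d had 36.1 and 30.2 CPM in cKO nuclei, against 89.2 and 102 in control nuclei. Cacna1a had 61.4 and 56.2 in cKO nuclei, against 116 and 122 in control nuclei. Cacna1g had 46.9 and 29.2 in cKO nuclei, against 9.49 and 13.3 in control nuclei. Both cKO libraries stood apart from both control libraries in each gene. Cacna1d fell by 1.57 on the log2 scale (edgeR quasi-likelihood test, SE 0.25, adjusted p = 0.00231), Cacna1a fell by 1.03 (SE 0.22, adjusted p = 0.0177) and Cacna1g rose by 1.58 (SE 0.38, adjusted p = 0.0353).

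These were 3 of 16 channel genes tested, 1 higher and 2 lower, beside 3.78% of all 11832 genes tested in fibroblast nuclei (2.32% higher and 1.45% lower). The groups did not overlap for 9 of the 16, and for 42.5% of all genes. The median log2 fold change was -0.20 over the 16, and 0.01 over all genes. DESeq2 called Cacna1d alone among the channel genes (adjusted p = 0.00334), beside 2.49% of all genes, and gave adjusted p = 0.0744 for Cacna1a and 0.172 for Cacna1g. Cacna1a did not pass without cKO 2 (log2 fold change -0.97) or without control 2 (-0.98), nor did Cacna1g without cKO 1 (1.26) or without control 2 (1.95), while Cacna1d passed in each.

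Scn7a was the highest channel gene of fibroblast nuclei per kilobase of gene span, at 5.84 CPM, against 1.42 for Cacna1c. By CPM alone Cacna1c was higher, with a mean of 866.5, against 651 for Scn7a. Scn7a had 463 and 574 CPM in cKO nuclei, against 812 and 755 in control nuclei, with no overlap (log2 fold change -0.59, SE 0.22, adjusted p = 0.215 by edgeR). Cacna2d1 had 476 and 521 in cKO nuclei, against 355 and 457 in control nuclei (log2 fold change 0.29, adjusted p = 0.66). Scn2a (Nav1.2), a neuronal sodium pore that was highest in fibroblast nuclei among the 5 classes, had 37 and 51.1 in cKO nuclei, against 41.8 and 55.9 in control nuclei, where the groups overlapped. Cacnb2 had 105 and 136 in cKO nuclei, against 175 and 159 in control nuclei (log2 fold change -0.44, adjusted p = 0.422). Cacna1c had 887 and 913 in cKO nuclei, against 801 and 865 in control nuclei (log2 fold change 0.11, adjusted p = 0.906). These levels of Cacna1c were 14.1% and 12.1% of the cardiomyocyte level in cKO libraries, and 13.6% and 11.9% in control libraries. The cardiomyocyte markers, summed over 12 genes, stood at 10.9% and 8.68% in cKO fibroblast nuclei, and at 12.9% and 10.4% in control ones. The part of cardiomyocyte RNA in these levels was not tested.

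The called genes stood above their cardiomyocyte levels in most libraries. Cacna1d in fibroblast nuclei was 244% and 153% of its cardiomyocyte level in cKO libraries, and 739% and 652% in control libraries. Cacna1a was at 223% and 273% in cKO libraries, and at 625.5% and 572% in control libraries. Cacna1g was at 242% and 184% in cKO libraries, and at 25.9% and 63.3% in control libraries. In fibroblast nuclei without a Ttn UMI, an alternative chosen after seeing the data that kept 224 and 279 cKO and 188 and 241 control nuclei, Cacna1d again passed (log2 fold change -1.51, adjusted p = 0.032). Cacna1a (-0.70, adjusted p = 0.357) and Cacna1g (1.36, adjusted p = 0.223) did not. Over all genes 288 were called in those nuclei, against 447 in the whole class.

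Different clusters also held most of the fibroblast class in the 2 groups. The cluster led by Nox4 and Postn, where Postn encodes the matrix protein periostin, held 90.4% and 80.4% of fibroblast nuclei in cKO libraries, against 18.2% and 14.5% in control libraries. The cluster led by Kcnip1, Lvrn and Scara5 held 8.83% and 11.9% in cKO libraries, against 81.5% and 85.4% in control libraries. Another cluster, led by Il6, held 7.69% of fibroblast nuclei in cKO 2 and under 1% in the other libraries, and without it the same 3 channel genes were called.

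Within these clusters the order of the groups was not that of the whole class for every gene. In the Scara5 cluster, Cacna1d had 159 and 112 CPM in cKO nuclei, from 12 and 34 UMIs, against 108 and 108 in control nuclei, from 44 and 178 UMIs. In the Postn cluster, it had 27.6 and 20.8 in cKO nuclei, from 28 and 57 UMIs, against 24.4 and 40.9 in control nuclei, from 3 and 14 UMIs. Cacna1d was thus higher in the Scara5 cluster than in the Postn cluster in all 4 libraries. Cacna1g ran the other way, with 13.2 and 6.61 in cKO nuclei of the Scara5 cluster, against 4.91 and 7.31 in control nuclei, and 50.3 and 30.6 in cKO nuclei of the Postn cluster, against 24.4 and 38 in control nuclei. Cacna1a had 106 and 99.1 in cKO nuclei of the Scara5 cluster, against 103 and 125 in control nuclei, and 59.2 and 49.9 in cKO nuclei of the Postn cluster, against 154 and 73.1 in control nuclei. Only for Cacna1a in the Postn cluster were both cKO libraries below both control libraries. The counts are small and are given without a test, as the clusters were drawn from the same counts.

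**Figure D3:**
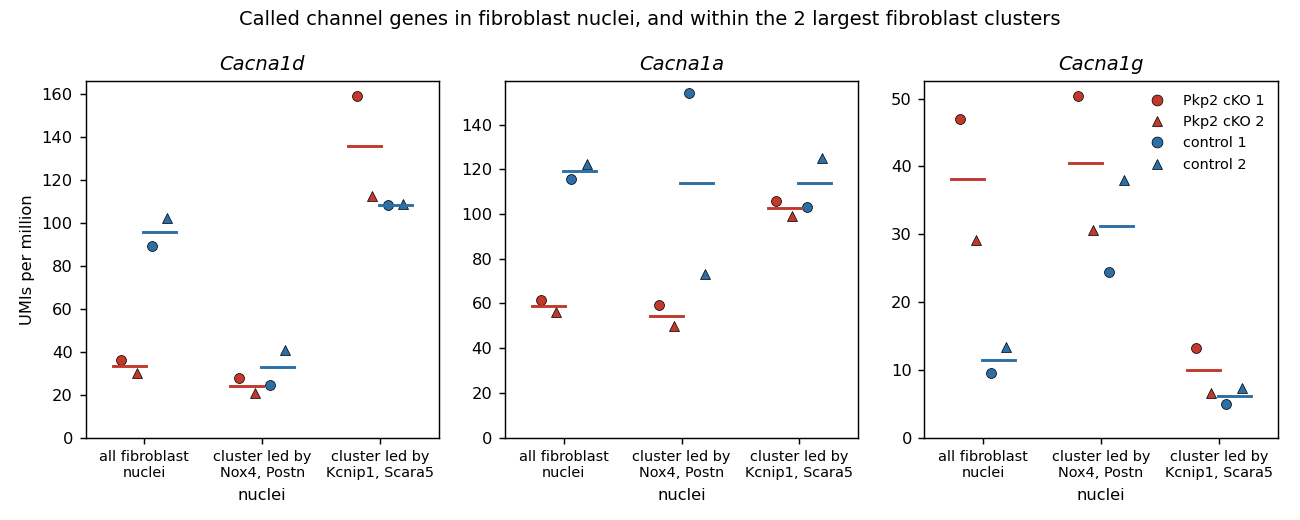
CPM of Cacna1d, Cacna1a and Cacna1g in all fibroblast nuclei and in the 2 largest fibroblast clusters, with each library as a point (Pkp2 cKO in red left of control in blue) and bars at group means of 2 libraries. The groups stand apart over all fibroblast nuclei, whereas within the Scara5 cluster cKO Cacna1d lies at 159 and 112 and control Cacna1d at 108 and 108.

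Of the 3 channel genes called in fibroblast nuclei, only Cacna1d was also called by DESeq2. Cacna1d has 2 annotated starts in RefSeq (GRCm38.p6), 137670 bases apart on the minus strand of chromosome 14. The gene spans bases 30039939 to 30491455 in GENCODE M21, on the same assembly, and overlaps the protein-coding genes Chdh and Dcp1a, whose reads cannot be told from its own where strand was not kept (as holds for Cacna1c and Dcp1b). The counts do not say which start was used. The 250 bases before each start are shown because they differ widely in base composition. Capitals mark matches to the GC box GGGCGG or to the TATA box TATAAA on either strand, and matches can overlap.
Upstream start, chr14:30491157-30491406, minus strand: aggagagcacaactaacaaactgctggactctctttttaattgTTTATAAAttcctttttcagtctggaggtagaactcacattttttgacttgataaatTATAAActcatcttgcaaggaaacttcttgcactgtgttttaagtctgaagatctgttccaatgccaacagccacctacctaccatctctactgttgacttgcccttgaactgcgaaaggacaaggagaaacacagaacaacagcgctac
Downstream start, chr14:30353487-30353736, minus strand: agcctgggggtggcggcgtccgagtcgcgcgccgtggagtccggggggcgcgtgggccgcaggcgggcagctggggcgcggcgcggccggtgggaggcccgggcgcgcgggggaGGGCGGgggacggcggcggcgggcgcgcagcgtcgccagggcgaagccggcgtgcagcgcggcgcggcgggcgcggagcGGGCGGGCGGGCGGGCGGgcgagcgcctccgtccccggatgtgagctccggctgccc
The upstream window was 39.6% G or C with 3 TATA box matches, and the downstream window was 86.4% G or C with 5 GC box matches. Over all 32851 promoter windows of that length the median was 52.4% G or C. GGGCGG was found in 32.7% of those windows and TATAAA in 12.4%. The AP-1 motif TGANTCA, found in 6.7%, and the TEAD motif GGAATG, found in 12.6%, had 0 matches in either window.

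In endothelial nuclei the genes of the muscle L-type channel were lower in Pkp2 cKO hearts. Cacna1c had 783 and 651.5 CPM in cKO nuclei, against 2182 and 1700.0 in control nuclei. Cacnb2 had 199 and 156 in cKO nuclei, against 502 and 385 in control nuclei. Cacna2d1 had 167 and 161 in cKO nuclei, against 469 and 370 in control nuclei. In each gene both cKO libraries lay below both control libraries. By edgeR, Cacna1c fell by 1.44 on the log2 scale (SE 0.24, adjusted p = 0.00663), Cacnb2 fell by 1.32 (SE 0.23, adjusted p = 0.00823) and Cacna2d1 fell by 1.35 (SE 0.22, adjusted p = 0.00511).

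These were 3 of 14 channel genes tested, with 0 higher, beside 3.52% of all 11713 genes (0.7% higher and 2.82% lower). DESeq2 called the same 3, beside 3.21% of all genes. The groups did not overlap for 8 of the 14, and for 45.1% of all genes, and the median log2 fold change was -0.41 over the 14 and 0.01 over all genes. Scn7a had 30.1 and 30.4 in cKO nuclei, against 25.5 and 37.4 in control nuclei, where the groups overlapped.

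Genes that define cardiomyocytes moved in the same nuclei. Of the 12 cardiomyocyte markers, all tested, 12 had a negative log2 fold change in endothelial nuclei and 6 were called lower, with a median of -1.26. Summed, they stood at 11840 and 8244 CPM in cKO endothelial nuclei, against 26250 and 19290 in control ones, and none was at 0. That sum was 16.9% and 12.1% of the cardiomyocyte level in cKO libraries, and 36.2% and 27.3% in control libraries. Cacna1c was at 12.7% and 8.75% of its cardiomyocyte level in cKO libraries, and at 35.8% and 23.5% in control libraries. The values of Cacnb2 and Cacna2d1 lay between 9.215% and 16.4% in cKO libraries, and between 24.4% and 43.2% in control libraries. For the marker sum and for each of the 3 genes, both cKO libraries had lower shares than both control libraries.

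In endothelial nuclei without a Ttn UMI, an alternative chosen after seeing the data that kept 312 and 377 cKO and 124 and 169 control nuclei, none of the 3 passed edgeR: Cacna1c was at -0.56 (adjusted p = 0.554), Cacnb2 at -0.32 (adjusted p = 0.889) and Cacna2d1 at -0.94 (adjusted p = 0.394). The 10 markers that could be tested had a median of -0.28 there. Over all genes 13 were called in those nuclei, against 412 in the whole class. Nor did the 3 channel genes pass with nuclei of up to 20% mitochondrial UMIs, where 23 of all genes were called. Cacna1c was at -0.32 there, Cacnb2 at -0.38 and Cacna2d1 at -0.49, and the markers' median was -0.35. Cacnb2 also missed the threshold without doublet removal (-0.85). In the endothelial cluster led by Kirrel3, Rps6kl1 and Lhx6, Cacna1c had 667 and 714 CPM in cKO nuclei, against 2837 and 2686 in control nuclei. In the largest endothelial cluster, led by Car4 and Cdh23, it had 499 and 498 in cKO nuclei, against 819 and 773 in control nuclei. The cluster led by H19, Nrg1 and Npr3 held 10.9% and 9.23% of endothelial nuclei in cKO libraries, against 19% and 20% in control libraries. Without it the 3 genes were again called.

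**Figure D4:**
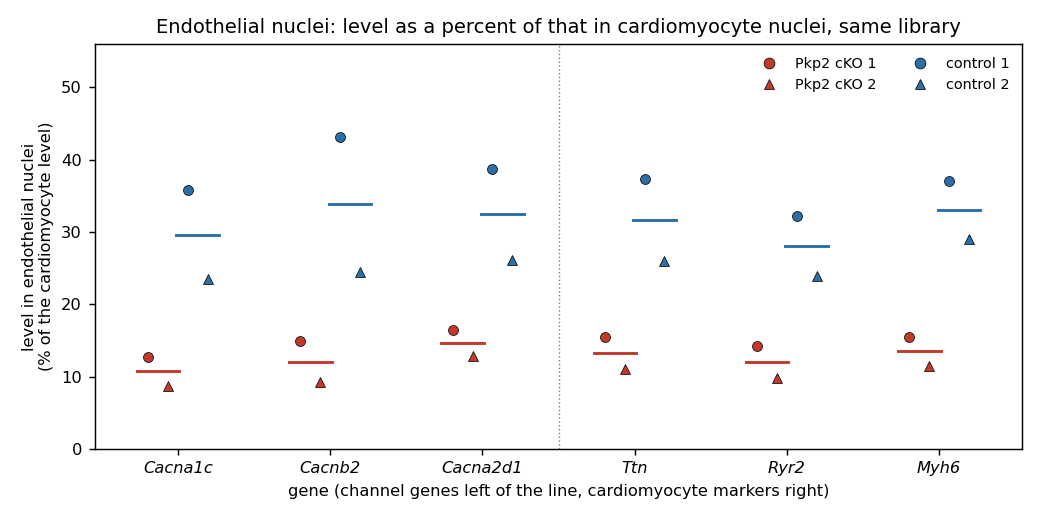
Level in endothelial nuclei as a percent of the level in cardiomyocyte nuclei of the same library, for 3 channel genes (left of the dotted line) and 3 cardiomyocyte markers (right), with each library as a point (Pkp2 cKO in red left of control in blue) and bars at group means of 2 libraries. All 6 genes lie between 8.75% and 16.4% in the cKO libraries, and all lie between 23.5% and 43.2% in the control libraries.

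In mural nuclei, the class in which 8 detected channel genes were highest, Cacna1c had 1727 and 2581 CPM in cKO nuclei, against 1967 and 2444 in control nuclei. Cacnb2 had 763 and 1251 in cKO nuclei, against 618 and 818 in control nuclei. Cacna2d1 had 741 and 823 in cKO nuclei, against 665 and 604.5 in control nuclei. Of these, the groups stood apart only for Cacna2d1. Cacna1c was at 26.3% and 32.6% of its cardiomyocyte level in cKO libraries, and at 31.9% and 32.7% in control libraries. The 12 cardiomyocyte markers, summed, were at 13.7% and 16.35% in cKO libraries, and at 12.1% and 16.1% in control libraries. The part of cardiomyocyte RNA in the mural levels was not tested. Scn3a had 327 and 384.4 in cKO nuclei, against 480 and 384.2 in control nuclei. Cacnb4 had 299 and 459.5 in cKO nuclei, against 337 and 447.5 in control nuclei. Cacna1h had 68.35 and 38.3 in cKO nuclei, against 57 and 34 in control nuclei. Per kilobase of gene span, Cacna1c and Scn3a were near each other, at 3.58 and 3.565 CPM, followed by Cacnb3 at 3.27. By CPM alone their means were 2180, 394 and 44.8.

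The mural class joined a cluster with Rerg and Lin7a among its leading genes, of 1204 nuclei, and one with Lmod1 and Myh11, genes of smooth muscle contraction, of 98 nuclei. The Myh11 cluster held 10.8% and 11.3% of mural nuclei in cKO libraries, against 3.09% and 5.25% in control libraries. Cacna1a stood at 279 and 360 CPM in cKO nuclei of the Rerg cluster, against 426 and 323 in control nuclei. In the Myh11 cluster it had 106 and 108.5 in cKO nuclei, from 5 and 11 UMIs, against 118 and 107 in control nuclei, from 1 and 6 UMIs. Cacnb2 stood at 504 and 859 in cKO nuclei of the Rerg cluster, against 538.5 and 675 in control nuclei. In the Myh11 cluster Cacnb2 had 1936 and 3067 in cKO nuclei, against 1775 and 2018 in control nuclei. Each of these lay above the cardiomyocyte level of its library. The part of the cluster shares in the class levels of Cacnb2 was not tested. Over the class, edgeR called 0 of 13 channel genes tested, beside 0.28% of all 8209 genes (0.207% higher and 0.0731% lower), and 0 had an unadjusted p under 0.05, beside 5.7% of all genes. DESeq2 called 0 channel genes and 0 of all genes. Log2 fold changes of the 13 ran from -0.35 for Cacna1d to 0.57 for Cacnb3. The median over the 13 was -0.03, and 0.00 over all genes, and the groups did not overlap for 3 of the 13, beside 34.2% of all genes.

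In macrophage nuclei Cacna1d, the one channel gene detected here for which this was the highest class, had 205 and 373 CPM in cKO nuclei, against 116 and 183 in control nuclei, with no overlap (log2 fold change 0.91, SE 0.35, adjusted p = 0.317 by edgeR). These levels were 1391% and 1824% of its cardiomyocyte level in cKO libraries, and 944% and 1178% in control libraries. Cacna1a had 42.55 and 55.7 in cKO nuclei, against 94.9 and 108 in control nuclei (log2 fold change -1.05, adjusted p = 0.1805). Cacnb2 had 71.2 and 123 in cKO nuclei, against 228.5 and 147 in control nuclei (log2 fold change -0.90, adjusted p = 0.315), and passed without cKO 2 (-1.35). By edgeR, 0 of 10 channel genes tested were called, beside 0.809% of all 10636 genes (0.536% higher and 0.273% lower), and 3 had an unadjusted p under 0.05, beside 10.8% of all genes.

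DESeq2 called 0 channel genes in macrophage nuclei, beside 0.794% of all genes. The groups did not overlap for 8 of the 10, beside 41% of all genes, and the median log2 fold change was -0.63 over the 10, and 0.02 over all genes. The 12 cardiomyocyte markers were all negative there, with a median of -0.64 and 0 called, and summed to 6538 and 6315 CPM in cKO macrophage nuclei, against 12400 and 7874 in control ones. Their part in the lower levels of Cacnb2, Cacna1c (497 and 533 in cKO nuclei, 851 and 699 in control nuclei) and Cacna2d1 (139.5 and 128.5 in cKO nuclei, 190 and 158 in control nuclei) was not tested. Scn7a had 104 and 26.7 in cKO nuclei, against 137 and 78 in control nuclei, where cKO 2 was lowest. The fibroblast markers, summed, had 2837 and 676 CPM in cKO macrophage nuclei, against 1632 and 1213 in control ones, with cKO 2 lowest too. The part of fibroblast RNA in the Scn7a levels was not tested. The cluster led by Sirpb1a and Ccr2 held 15.4% and 21% of macrophage nuclei in cKO libraries, against 0.457% and 1.33% in control libraries. Outside it, in the other macrophage cluster, Cacna1d had 218.5 and 402.5 in cKO nuclei, against 114 and 178 in control nuclei.

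**Figure D5:**
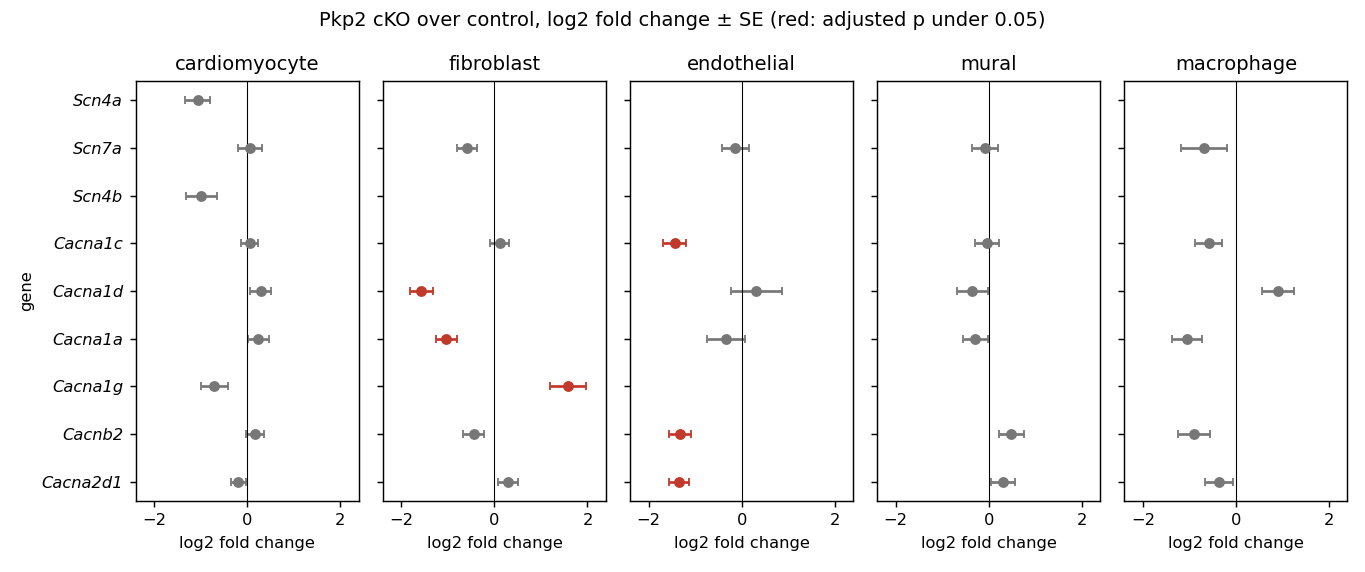
Log2 fold change of Pkp2 cKO over control for 9 channel genes (rows) in 5 nucleus classes (panels), with bars of 1 SE from edgeR and red points at an adjusted p under 0.05; a gene without a point was too low to test in that class. Red points are Cacna1d, Cacna1a and Cacna1g in fibroblast nuclei and Cacna1c, Cacnb2 and Cacna2d1 in endothelial nuclei.

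Whether a change in cardiomyocyte nuclei differed from that in another class was tested with an interaction term, in one edgeR fit per pair of classes with library as a term. Against fibroblast nuclei 4 of 21 channel genes tested differed, beside 6.01% of all genes: Cacna1d, Cacna1a, Cacna1g and Cacna2d1. The largest of them was that of Cacna1g, with a log2 fold change of -0.71 in cardiomyocyte nuclei, against 1.58 in fibroblast nuclei. Against endothelial nuclei 4 of 22 differed, beside 6.34% of all genes, among them Cacna1c, Cacnb2 and Cacna2d1, whose endothelial shares are given above beside those of the cardiomyocyte markers. Against macrophage nuclei 2 of 20 differed, Cacna1a and Cacnb2, beside 1.87% of all genes. Against mural nuclei 0 of 20 differed, with 1 at an unadjusted p under 0.05 and 0 called by DESeq2, beside 1.01% of all genes.

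The smaller classes held too few nuclei for a test and are given pooled over libraries, with exact Poisson intervals at the 95% level that cover counting error only. In 17 Schwann-like or neuron-like nuclei Scn7a stood at 2827 CPM (2255 to 3500, from 84 UMIs). In 301 lymphatic nuclei Scn3a stood at 213 (179 to 252) and Scn3b, a sodium beta subunit gene, at 67.9 (49.3 to 91.1). Cacna1i (Cav3.3), a T-type pore that did not reach the minimum in the 5 larger classes, had 16 UMIs in 109 lymphocyte nuclei, or 73.6 CPM (42.1 to 119.5). Cacna1c stood at 1518 (1358 to 1691) in lymphocyte nuclei and at 2139 (1917 to 2379) in 58 epicardial nuclei, and the part of cardiomyocyte RNA in these levels was not tested.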

How the data were processed

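The deposited matrices hold raw UMI counts (integers, per the file headers) for each gene in each nucleus. The submitters' processing notes name the build mm10; aligner, annotation, and the treatment of introns and strand are not stated there or in the labels. Coordinates are from GENCODE M21 (GRCm38), matched by gene identifier. Nuclei with at least 300 genes, at least 500 UMIs and at most 5% mitochondrial UMIs were kept, the top 0.5% of barcodes by UMIs were removed, and doublets were scored with Scrublet in scanpy 1.11.5. Its automatic threshold, which removed 13.5% in cKO 2, marked under 0.5% in the other 3 libraries, where the highest 6% were removed. Clusters came from the Leiden method at resolution 1 on 2000 variable genes and 30 principal components. Naming a cluster took 3 or more markers; a marker had to be seen in 10% of the nuclei, exceed the other clusters' median 2 times and reach 33% of the highest cluster. These limits were set after seeing the data.

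Counts were summed per library and class and tested with edgeR 4.0.16 (R 4.3.3; quasi-likelihood test, TMM, filterByExpr) with adjustment over all genes of a class at 0.05, and with DESeq2 1.42.0 as an alternative. The SE was derived from the log2 fold change and the F statistic of the test. The edgeR models of a class and of the interaction were also run on simulated counts. These had the same spread for every gene, no replicate effect, and changes only in genes above a minimum count. They do not show how the models do for genes of low count. The channel genes, partner lists and marker lists were chosen with earlier results of these data known. Genes named are those called by either tool, the 5 highest in each class and 14 with known roles in heart cells. Scn2a, Cacnb1, Cacnb3 and Cacna1i, the partner gene Fgf13, and genes in the smaller classes, were named after their values were seen. Counts cover all channel genes tested, but the values of some are not reported here. Marker sums, levels within a cluster and percents of the cardiomyocyte level use raw totals, without TMM factors. Alternatives were other size factors, no expression filter, each library left out, a block on the replicate number, other limits on UMIs and mitochondrial share, no doublet removal, and other clusterings.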

Additional observations from a re-analysis of the deposited data

Results flagged for a closer look

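Changes (log2, Pkp2 cKO over control) that differed between classes by the interaction test of edgeR, at an adjusted p under 0.05 over all genes, are given as the change in cardiomyocyte nuclei minus that in the other class. Against fibroblast nuclei the difference was 1.86 for Cacna1d, which had 0.29 in cardiomyocyte and -1.57 in fibroblast nuclei. It was 1.18 for Cacna1a (0.24 and -1.03), -2.09 for Cacna1g (-0.71 and 1.58) and -0.51 for Cacna2d1 (-0.19 and 0.29). That of Cacna2d1 missed the threshold without each of the 4 libraries in turn (-0.61 to -0.45) and with DESeq2 (adjusted p = 0.151), as did that of Cacna1a with DESeq2 (adjusted p = 0.0577).

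Against endothelial nuclei the difference was 1.42 for Cacna1c (0.05 in cardiomyocyte and -1.44 in endothelial nuclei), 1.43 for Cacnb2 (0.16 and -1.32) and 1.09 for Cacna2d1 (-0.19 and -1.35). Without cKO 2 those of Cacna1c (1.20) and Cacna2d1 (0.95) missed the threshold, as they did with nuclei of up to 20% mitochondrial UMIs (0.24 and 0.18). In the same endothelial nuclei the 12 cardiomyocyte markers had a median change of -1.26.

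Against macrophage nuclei the difference was 1.18 for Cacna1a (0.24 in cardiomyocyte and -1.05 in macrophage nuclei) and 0.96 for Cacnb2 (0.16 and -0.90). Cacna1a missed the threshold without cKO 1 (0.80), without control 1 (1.21) and without control 2 (1.11), and Cacnb2 without cKO 1 (0.72), without control 1 (0.51) and without control 2 (1.51). In the same macrophage nuclei the 12 cardiomyocyte markers had a median change of -0.64.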

How the results depend on the processing

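In cardiomyocyte nuclei the number of channel genes called, 0 in the report, was 1 with up to 20% mitochondrial UMIs (Scn4a), 2 without the expression filter (Scn4a among them), and 0 to 1 with a library left out. Of partner genes, 1 in the report, 2 were called by DESeq2, with a minimum of 1000 UMIs, and with up to 1% or 20% mitochondrial UMIs, 4 without the expression filter, and 2 to 3 with a library left out. In fibroblast nuclei the 3 calls became 1 with DESeq2, 1 in nuclei without a Ttn UMI, and 1 to 3 with a library left out. In endothelial nuclei the 3 calls became 0 with up to 20% mitochondrial UMIs and 0 in nuclei without a Ttn UMI, and were 3 to 4 with a library left out. In macrophage nuclei 1 was called with up to 20% mitochondrial UMIs (Cacna1a), and 0 to 1 with a library left out. Differences between classes numbered 2 with DESeq2 against fibroblast nuclei (4 in the report). Against endothelial nuclei (4) they numbered 1 with up to 20% mitochondrial UMIs and 1 to 4 with a library left out. Against macrophage nuclei (2) they numbered 0 with DESeq2, 1 with up to 20% mitochondrial UMIs, 1 without the expression filter, and 0 to 2 with a library left out. The cause of these differences was not tested. With a library left out, the lone library of its group is assumed to vary like those of the other group.

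With the replicate number of the titles as a block, 7 channel genes were called in cardiomyocyte nuclei, 10 partner genes there, 6 channel genes in fibroblast, 4 in endothelial, 0 in mural and 4 in macrophage nuclei, and calls over all genes rose to 3940, 2106, 2176, 57 and 796 in these classes, cardiomyocyte first. Same-numbered libraries deviated together (correlation over genes 0.51 in cardiomyocyte and 0.18 to 0.35 in the other classes), but the labels do not say what the number marks, and with 2 pairs the pairing is only a hint from the data. Over the other alternatives, all-gene calls ran from 293 to 814 in cardiomyocyte nuclei (439 in the report), 288 to 603 in fibroblast (447), 13 to 587 in endothelial (412), 0 to 31 in mural (23) and 41 to 472 in macrophage nuclei (86). For differences between classes they ran from 279 to 1631 against fibroblast (981), 299 to 1189 against endothelial (1027), 21 to 178 against mural (156) and 11 to 711 against macrophage nuclei (297).

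Of 749 alternative values of single genes, 39 lost and 23 gained the threshold, and 0 that were called in either fit changed direction. The limit of 1% mitochondrial UMIs was not run outside cardiomyocyte nuclei, nor that of 20% in mural nuclei, since a library then held fewer than 50 nuclei of the class. Of the 40 genes, 23 had enough counts for a test in some class, and the SE of the log2 fold change reached 0.87 in macrophage nuclei.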
